A study of Mus musculus with 7 samples.

Results

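The genes examined here encode 8 surface receptors of lymphocytes: the checkpoint receptors LAG-3 (Lag3), TIM-3 (Havcr2) and TIGIT (Tigit), and the related receptors CD96, CD226, CD160, CD200R1 and CD244. They were taken by name, and each of the 8 names matched 1 of the 55335 identifiers in the count and FPKM tables. Not all of them inhibit: CD226 is an activating receptor, and CD160 and CD244 can signal in either direction. The RNA was that of ILC2s, the type 2 class of innate lymphoid cells, which lack rearranged antigen receptors and answer to tissue alarm signals. There were 3 libraries of naive hearts and 4 libraries of heart allografts, in which hearts of BALB/c donors had been placed in C57BL/6 recipients and were taken at day 7 during acute rejection. The labels give the same time of 7 days for the naive libraries, and neither the strain of the naive hearts nor the sex or age of the mice. Cells were sorted as CD45-positive, lineage-negative and ST2-positive, and 1 library pooled the cells of 4 to 7 hearts. The labels name no marker that tells cells of the donor from cells of the recipient in a graft. The series description calls the pools biological replicates, so each p-value below measures the spread between pools and not between mice.

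Inhibitory receptors restrain lymphocytes that have been activated, and several of them are named checkpoints because their blockade releases T cells and natural killer (NK) cells. LAG-3 binds class II molecules of the major histocompatibility complex, and TIM-3 binds galectin-9, CEACAM1 and HMGB1. TIGIT, CD96 and CD226 share the ligand CD155 (Pvr) and differ in the nectins that they bind. TIGIT carries an inhibitory tyrosine motif in its tail, whereas CD226 activates the cell on binding CD155. CD160 binds the herpesvirus entry mediator (Tnfrsf14), CD200R1 binds CD200 and recruits the Dok adaptors, and CD244, also called 2B4, binds CD48 and signals through the adaptor SAP (Sh2d1a).

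Total counts were 43591167 to 53044907 in the naive and 29107326 to 44023726 in the allograft libraries. Genes with a count numbered 15820, 20254 and 13864 in naive replicates 1 to 3 and 19235 to 21354 in the allografts. Fold bounds below that rest on naive counts of 0 cover counting error only, not transcripts lost before counting. Naive replicate 2 stood apart from the other libraries. The 13 ILC2 marker genes, among them Il1rl1 (ST2) and Gata3, summed to 210 counts per 1000000 (CPM) there, against 8035 and 8646 CPM in the other naive libraries and 8136 to 8496 CPM in the allografts. Mitochondrial transcripts made up 26.5% of its counts, against 2.04% to 3.11% in the other 6 libraries. The 7 endothelial marker genes summed to 481 CPM in it and to between 8.26 and 49.8 CPM elsewhere. Values without that library are given for each receptor. They are also given for the ligand, adaptor, relative, inhibitory receptor and transcription factor genes and lists whose calls change, but not for cell type markers. In RNA from pooled cells, fewer cells that carry a transcript and less of it per cell cannot be told apart.

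With all 7 libraries, 0 of the 8 receptors passed an adjusted p of 0.05 in edgeR's quasi-likelihood test, where 6 of 17015 tested genes passed (0.0353%; 5 higher and 1 lower in allografts). All 8 passed the filter on low counts. At an unadjusted p under 0.05 there were 2 receptors, both higher in allografts (Cd244 and Havcr2), beside 6.41% of all tested genes in that direction, and 0 lower (3.86%). DESeq2 called the same 2, of the 7 for which it gave an adjusted p (6.93% of genes called), and limma voom with sample quality weights called 0. The fitted fold change was above 0 for 7 receptors and below 0 for Cd200r1, with a median log2 value of 1.91, against -0.01 over all tested genes. In 4 receptors (Havcr2, Tigit, Cd160 and Cd244) each allograft library lay above each naive library by CPM, which held for 12.5% of all tested genes. On the TMM scale, which is normalized for composition, the 4 receptors were also apart, beside 10.5% of genes. No receptor lay lower in all allografts (2.15% of genes). With naive replicate 2 left out, Lag3 joined the 4 (5 of 8, beside 21% of genes) and Cd200r1 lay lower in all allografts (1 of 8, beside 7.15%).

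**Figure D1:**
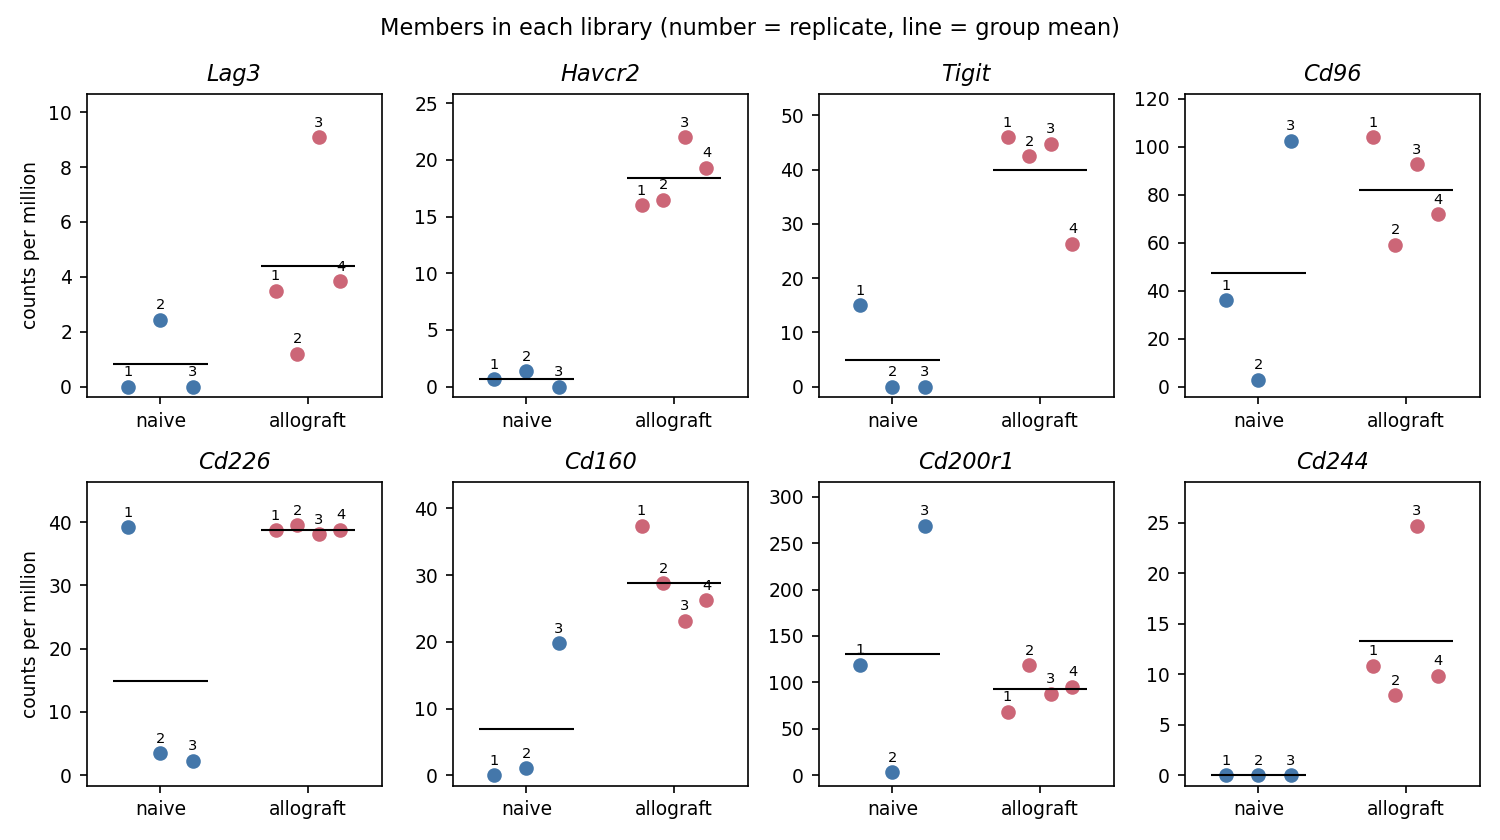
CPM (linear axis from 0, 1 scale per panel) of the 8 receptor genes in the 3 naive (blue) and 4 allograft (red) libraries; numbers are replicates and lines are group means. Havcr2, Tigit, Cd160 and Cd244 do not overlap between the groups, Cd226 of naive replicate 1 sits at the allograft level, and Cd200r1 is highest in naive replicate 3.

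Havcr2 was low in each naive library and higher in each allograft. Havcr2 (ENSMUSG00000020399; GRCm38 chromosome 11, 46454935 to 46481255, plus strand) encodes TIM-3. It stood at 0.679, 1.34 and 0 CPM across naive replicates 1 to 3, from 36, 61 and 0 counts. In allograft replicates 1 to 4 it had 15.99, 16.5, 21.98 and 19.3 CPM. The lowest allograft thus lay far above the highest naive library, and the 4 allografts lay close together. The group means were 0.673 ± 0.670 CPM (SD, n = 3) and 18.4 ± 2.78 CPM (SD, n = 4). The log2 fold change was 4.37 (SE 1.59, adjusted p = 0.365 by edgeR, unadjusted 0.0268). Over 13 alternative analyses the adjusted p ran from 0.0412, with DESeq2, to 1. The log2 value was 5.72 without naive replicate 2 (SE 1.73, adjusted p = 0.138).

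Cd244 was not counted in any naive library. Cd244 (ENSMUSG00000004709, named Cd244a in GENCODE M21; GRCm38 chromosome 1, 171559193 to 171609746, plus strand) encodes 2B4, a receptor of the SLAM family known from NK cells and memory T cells. Its count was 0 in naive replicates 1, 2 and 3, and it had 10.8, 7.93, 24.7 and 9.86 CPM in allograft replicates 1 to 4, from 477, 257, 1008 and 287 counts. Allograft replicate 3 was the highest, and the other 3 lay within a narrow band. Set against a floor of 3 counts in each naive library, the allograft mean of 13.3 ± 7.66 CPM (SD, n = 4) was at least 209-fold higher (adjusted p = 0.144 by edgeR). This bound covers counting error only. The adjusted p ran from 4.2e-13 (DESeq2) to 1 over 13 alternatives. Cd244 passed without naive replicate 2 (adjusted p = 0.0351, at least 212-fold; 3.1% of 18037 genes passed there) and missed the threshold without naive replicate 1 (0.0523, 0.568% of genes) or 3 (0.0882, 0.0372% of genes). Ly9 overlaps the locus on the other strand without a shared exon.

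Lag3 was the lowest of the receptors in allografts and depended on naive replicate 2. Lag3 (ENSMUSG00000030124; GRCm38 chromosome 6, 124904361 to 124911705, minus strand) encodes LAG-3, a relative of CD4. It stood at 0, 2.44 and 0 CPM across naive replicates 1 to 3 and 3.50, 1.20, 9.08 and 3.85 CPM in allograft replicates 1 to 4. The only naive library with Lag3 counts was the one with few ILC2 transcripts, and its value lay above that of allograft replicate 2, so the groups overlapped. The log2 fold change was 1.86 (SE 2.24, adjusted p = 0.869 by edgeR). Without naive replicate 2 the remaining naive libraries had no count and the allograft mean of 4.41 CPM was at least 70.3-fold higher, with an adjusted p of 0.05125 (range over 13 alternatives 0.05125 to 1).

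Tigit separated the groups, but only 1 naive library held any of its transcript. Tigit (ENSMUSG00000071552; GRCm38 chromosome 16, 43648867 to 43664146, minus strand) stood at 15.0, 0 and 0 CPM across naive replicates 1 to 3. In allograft replicates 1 to 4 it had 45.95, 42.4, 44.8 and 26.4 CPM. The lowest allograft still lay above naive replicate 1, and naive replicates 2 and 3 allowed at most 0.0659 and 0.0688 CPM, the value of 3 counts. The means were 4.996 ± 8.65 CPM (SD, n = 3) and 39.9 ± 9.14 CPM (SD, n = 4). On the log2 scale this was a fold change of 3.01 (SE 2.14, adjusted p = 0.740 by edgeR). Without naive replicate 1 the 2 remaining naive libraries were at 0 and Tigit passed (at least 592-fold higher, adjusted p = 0.0207, where 0.568% of genes passed). The adjusted p over 13 alternatives ran from 0.0207 to 1, and without naive replicate 2 it was 0.523.

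Cd96 had similar values in naive replicate 3 and the highest allografts. Cd96 (ENSMUSG00000022657; GRCm38 chromosome 16, 46035657 to 46120251, minus strand) stood at 36.2, 2.97 and 103 CPM across naive replicates 1 to 3 and 104, 59.2, 92.7 and 72.0 CPM in allograft replicates 1 to 4. The groups overlapped, and the low naive value was again that of replicate 2. Its log2 fold change was 0.74 (SE 0.863, adjusted p = 0.864 by edgeR). Without naive replicate 2 it was 0.18 (SE 0.482, adjusted p = 0.889), while the median of all tested genes was 0.23 in that fit. Without naive replicate 3 it was 2.03 (SE 0.836, adjusted p = 0.299).

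Cd226, the activating partner, had nearly 1 value in the allografts and 2 levels in the naive hearts. Cd226 (ENSMUSG00000034028; GRCm38 chromosome 18, 89176967 to 89272229, plus strand) stood at 39.1, 3.47 and 2.27 CPM across naive replicates 1 to 3. It had 38.7, 39.5, 38.1 and 38.8 CPM in allograft replicates 1 to 4. Naive replicate 1 thus lay inside the allograft range and the other naive libraries far below it. Its log2 fold change was 1.33 (SE 0.907, adjusted p = 0.730 by edgeR). It was 3.38 without naive replicate 1 (SE 0.510, adjusted p = 0.0558), and 0.88 without naive replicate 2 (SE 0.943, adjusted p = 0.676). Over the 12 alternatives that gave an adjusted p, it ran from 0.0558 to 1.

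**Figure D2:**
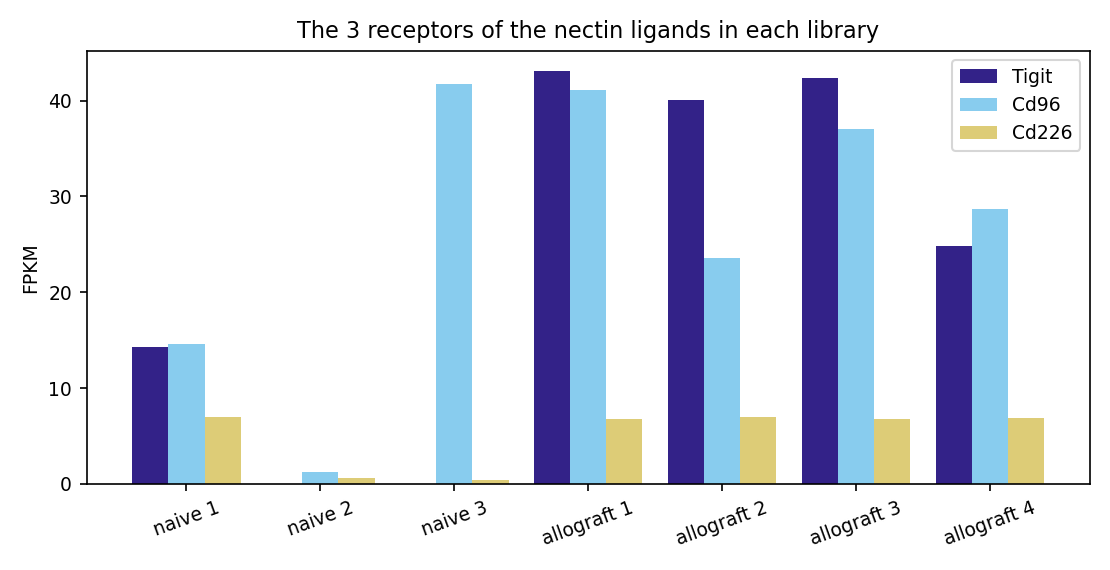
FPKM (linear axis from 0) of Tigit, Cd96 and Cd226 in each of the 7 libraries. Tigit is absent from naive replicates 2 and 3, Cd226 is low in the same libraries, and Tigit and Cd96 exceed Cd226 in each allograft.

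The 3 receptors that share the ligand CD155 can be set against each other within a library by FPKM, which scales counts to gene length. Tigit had 6.34, 5.74, 6.28 and 3.63 times the FPKM of Cd226 in allograft replicates 1 to 4 and 2.04 times in naive replicate 1. Its ratio was 0 in naive replicates 2 and 3, where Tigit had no count against 158 and 99 counts of Cd226. Cd96 had 3.38 to 6.05 times the FPKM of Cd226 in the allografts. In naive replicates 1 to 3 this ratio was 2.08, 1.95 and 102. Tigit and Cd96 thus exceeded Cd226 in each allograft. All 3 naive ratios of Tigit to Cd226 lay below those of the allografts, whereas those of Cd96 to Cd226 lay on either side.

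Cd160 lay higher in each allograft, with a naive library close behind. Cd160 (ENSMUSG00000038304; GRCm38 chromosome 3, 96798763 to 96829351, minus strand) encodes a receptor anchored in the membrane by lipid in its common form. It stood at 0, 1.03 and 19.8 CPM across naive replicates 1 to 3 and 37.4, 28.8, 23.2 and 26.2 CPM in allograft replicates 1 to 4. Naive replicate 3 thus fell just short of the lowest allograft. The log2 fold change was 1.96 (SE 1.72, adjusted p = 0.797 by edgeR, 0.242 to 1 over 13 alternatives). It was 5.27 without naive replicate 3 (SE 1.85, adjusted p = 0.242) and 1.47 without naive replicate 2 (SE 1.87, adjusted p = 0.736). Exons of Pdzk1 overlap those of Cd160 on the other strand, and whether the counting used strand is not given in the sources used here. Pdzk1 had 14145 counts (310.9 CPM) in naive replicate 2, where Cd160 had 47 counts, and 0 counts in all others but allograft replicate 1, with 36. The naive replicate 2 value of Cd160 is therefore uncertain.

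Cd200r1 was the 1 receptor gene with a lower allograft mean. Cd200r1 (ENSMUSG00000022667; GRCm38 chromosome 16, 44765736 to 44794978, plus strand) encodes the receptor of CD200, which is known from myeloid cells, mast cells and some lymphocytes. It stood at 119, 3.45 and 269 CPM across naive replicates 1 to 3 and 68.5, 118, 87.9 and 95.4 CPM in allograft replicates 1 to 4. The 2 naive libraries rich in ILC2 transcripts lay above the allografts, replicate 1 only by a narrow margin, and naive replicate 2 lay below them all. For Cd200r1 the log2 fold change was -0.54 (SE 0.963, adjusted p = 0.930 by edgeR). Without naive replicate 2 it was -1.13 (SE 0.380, unadjusted p = 0.0231, adjusted p = 0.180), and all allografts lay below both naive libraries, as for 7.15% of genes. The direction turned to 0.59 without naive replicate 3, so the sign rests on single libraries.

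**Figure D3:**
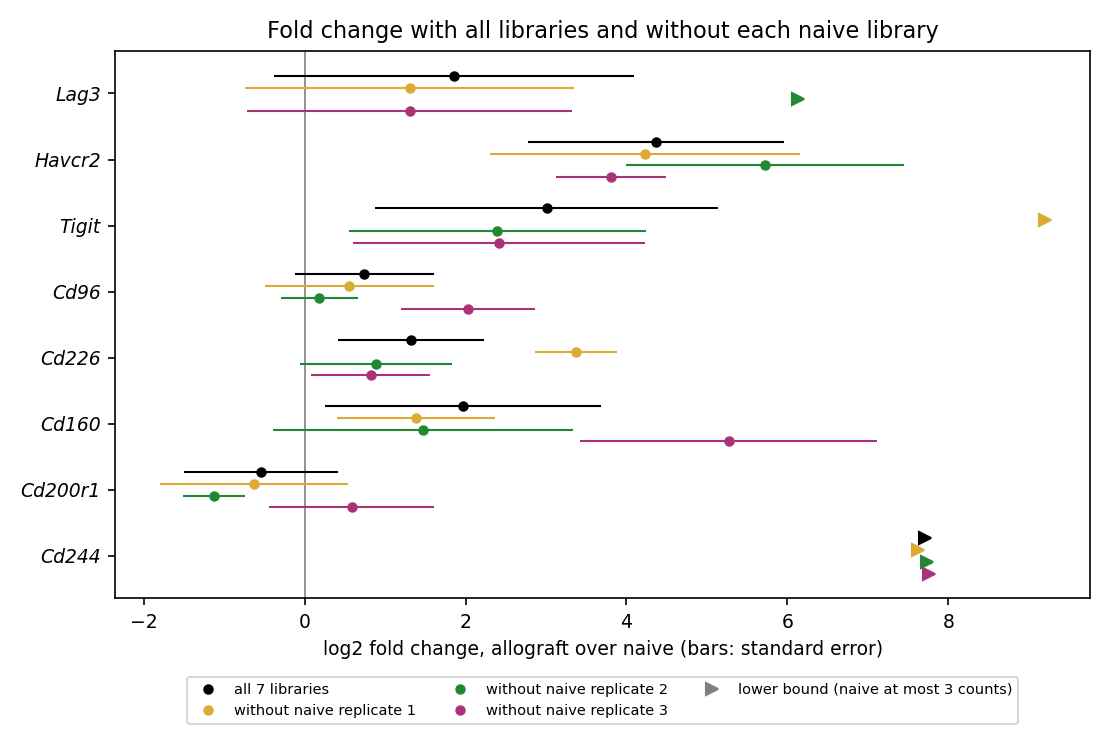
Log2 fold change of allograft over naive for the 8 receptor genes with all libraries (black) and without each naive library (colours); bars are standard errors and triangles are lower bounds where the remaining naive libraries hold at most 3 counts. Cd244 and Havcr2 stay well above 0 in these 4 fits, while Tigit, Lag3, Cd226 and Cd160 move with 1 naive library and Cd200r1 changes sign.

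By FPKM the allograft libraries ordered the receptors from Tigit (37.6 ± 8.58, SD, n = 4) and Cd96 (32.6 ± 7.93) through Cd200r1 (23.9 ± 5.37), Cd160 (9.45 ± 1.96), Cd226 (6.84 ± 0.0994) and Havcr2 (5.86 ± 0.905) to Cd244 (2.36 ± 1.37) and Lag3 (1.81 ± 1.38). The library ranges of neighbours overlapped between Tigit and Cd96, Cd96 and Cd200r1, Cd226 and Havcr2, and Cd244 and Lag3. They did not overlap between Cd200r1 and Cd160, between Cd160 and Cd226 or between Havcr2 and Cd244. In naive libraries Cd200r1 was first (34.4 ± 35.2 FPKM, SD, n = 3), then Cd96 (19.2 ± 20.6), Tigit (4.77 ± 8.25), Cd226 (2.68 ± 3.74) and Cd160 (2.33 ± 3.72). Lag3 (0.352 ± 0.610), Havcr2 (0.220 ± 0.223) and Cd244 (0) were last. All neighbours from Cd200r1 to Cd244 overlapped in the naive libraries. With naive replicate 2 left out, Havcr2 (0.107 FPKM) ranked above Lag3 (0), and the ranges of Cd96 and Tigit no longer overlapped. Cd200r1 thus led in the naive and Tigit in the allograft group, but naive spreads were as large as their means.

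**Figure D4:**
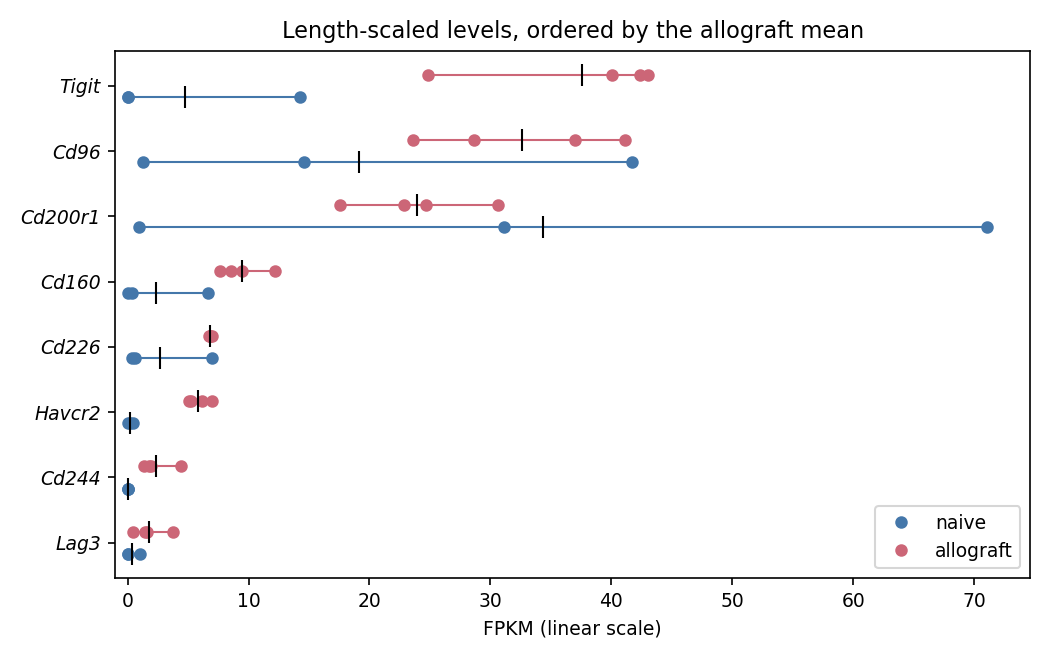
FPKM (linear axis) of the 8 receptor genes in naive (blue) and allograft (red) libraries, ordered by the allograft mean; points are libraries, horizontal lines the range and vertical ticks the mean. Tigit, Cd96 and Cd200r1 form the upper tier in allografts, and the naive ranges are wide for all but Lag3, Havcr2 and Cd244.

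Start regions are shown for 3 receptors that differed in their naive levels: Havcr2, near 0 in all naive libraries, Tigit, present in 1 of them, and Cd96, present in all. RefSeq windows (GRCm38.p6) were found for 5 of the 8 receptors. The bases from 250 to 11 before the RefSeq start are printed 5′ to 3′ on the gene's strand, with matches to the motifs below in capitals. The windows are chr11:46454681-46454920 on the plus strand for Havcr2, and chr16:43664195-43664434 and chr16:46120259-46120498 on the minus strand for Tigit and Cd96.
Havcr2: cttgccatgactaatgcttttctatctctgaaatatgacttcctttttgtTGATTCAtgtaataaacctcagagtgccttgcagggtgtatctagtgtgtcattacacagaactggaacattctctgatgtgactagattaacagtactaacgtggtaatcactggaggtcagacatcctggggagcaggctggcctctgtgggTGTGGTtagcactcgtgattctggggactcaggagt
Tigit: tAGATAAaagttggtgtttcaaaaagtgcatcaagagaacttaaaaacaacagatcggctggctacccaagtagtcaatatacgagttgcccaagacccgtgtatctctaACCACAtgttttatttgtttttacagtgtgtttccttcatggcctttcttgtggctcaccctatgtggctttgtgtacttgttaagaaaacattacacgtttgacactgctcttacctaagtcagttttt
Cd96: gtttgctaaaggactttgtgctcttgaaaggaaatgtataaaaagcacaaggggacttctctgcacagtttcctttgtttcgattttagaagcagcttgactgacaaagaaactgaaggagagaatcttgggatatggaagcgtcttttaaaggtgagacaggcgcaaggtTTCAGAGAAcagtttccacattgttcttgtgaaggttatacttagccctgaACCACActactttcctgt

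On both strands, 7 motifs were searched: RUNX (TGTGGT), T-box (AGGTGTGA), AP-1 (TGANTCA), STAT (TTCNNNGAA), the motif of the GATA factors (AGATAA), E-box (CACGTG) and the IRF repeat, which is GAAA given a second time after any 2 bases. Each printed window held 1 RUNX match, a motif found in 13.6% of 32851 such windows. Both start sites of Cd160 held 1 as well, and Cd244a held none. Havcr2 and Cd244a had 1 AP-1 match each (6.58% of windows), Cd96 and 1 start site of Cd160 a STAT match (6.77%), Tigit a GATA match (9.74%) and Cd244a an E-box match (5.69%). No window of these receptors held the T-box (1.07%) or IRF (2.87%) letters, and no matches overlapped in the printed windows. A match of letters is a description and not a site.

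Ligand genes were measured in the same libraries. Of 16 ligand genes, 14 were tested and 0 passed in edgeR. At an unadjusted p under 0.05, 3 were higher and 0 lower, where 6.41% of all tested genes were higher and 3.86% lower. These shares are also the background of the other 4 lists. The ligand median log2 fold change was 0.24, beside -0.01 over all tested genes. The 3 were the class II genes bound by LAG-3. H2-Ab1 stood at 55.0, 432 and 170 CPM across naive replicates 1 to 3 and 971 to 1496 CPM in the allografts (log2 fold change 2.03, SE 0.791, adjusted p = 0.417). H2-Aa (23.1 to 187 CPM against 433 to 626) and H2-Eb1 (12.8 to 104 CPM against 300 to 413) did not overlap between the groups either. Among the 14 tested ligand genes, 5 lay higher in each allograft and 0 lower, beside 12.5% and 2.15% of all tested genes. When naive replicate 2 was left out, the 3 class II genes, Lgals3 and Ceacam1 passed, 5 of 14, where 3.1% of genes passed. H2-Eb1 and Lgals3 had an adjusted p of 0.0234 in that fit, H2-Aa and H2-Ab1 of 0.0433 and Ceacam1 of 0.0446. Each of the 5 passed in 1 alternative, with an adjusted p of up to 1 in others. Ceacam1 had a log2 fold change of -2.65 with all libraries: its 3 naive values were 0, 23.96 and 0 CPM, and the allografts had 1.39 to 2.65 CPM.

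Nectin2 and Nectin3 were scarce except in naive replicate 2, whereas Pvr was also counted in each allograft. Pvr (CD155) stood at 0, 8.40 and 0.0918 CPM across the naive and at 2.07 to 7.97 CPM in the allograft libraries. Nectin2 had 64.0 CPM in naive replicate 2 and at most 1.24 CPM elsewhere, and Nectin3 had 37.2 CPM there and at most 3.58 CPM elsewhere. Cd200, the ligand of CD200R1, had 68.0 CPM in naive replicate 2 and at most 4.57 CPM elsewhere. The library with the highest values of Pvr, Nectin2, Nectin3 and Cd200 was also the one with 481 CPM of endothelial markers. The part of such cells in these values was not tested. Outside naive replicate 2, Lgals9 and Cd48 stood at higher CPM than these ligands. Lgals9 (galectin-9) had 32.004 to 351 CPM in naive and 190 to 284 CPM in allograft libraries, and Cd48, the ligand of CD244, had 4.13 to 142 CPM and 74.8 to 113 CPM. Tnfrsf14 had at most 0.189 CPM in naive and 0.245 to 1.75 CPM in allograft libraries. Clec4g, a LAG-3 ligand of the liver, had 0 counts in all 7 libraries, which allows up to 0.103 CPM.

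Adaptors and enzymes that act below the receptors gave 0 passing genes of 15 tested, with 2 higher and 0 lower at an unadjusted p under 0.05 (6.41% and 3.86% of all genes) and a median log2 fold change of 0.42. The median was 0.21 without naive replicate 2. Sh2d1a, which encodes the SAP adaptor of CD244, was the first by p. It had 0 counts in the naive libraries and 0.825 to 4.97 CPM in the allografts. This was higher by at least 46.3-fold (adjusted p = 0.144 by edgeR). Cd244 had 0 naive counts as well, but so did, among others, Timd4, Slamf6, Pvrig, Cd300lf, Tbx21 and Zfp683 of the lists below. Ptpn6, the phosphatase SHP-1 recruited by inhibitory motifs, had 5.16 to 21.0 CPM in naive and 45.0 to 67.5 CPM in allograft libraries (log2 fold change 1.58, SE 0.592, adjusted p = 0.388). The kinases Fyn (17.035 to 91.9 against 118 to 154 CPM) and Lck (3.34 to 58.6 against 72.4 to 89.9 CPM) did not overlap between groups. In this list 6 of 15 tested genes lay higher in each allograft, beside 12.5% of all tested genes. Lower in each allograft were 0 (2.15% of all tested genes).

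Family relatives of the receptors gave 0 passing genes of 12 tested, with 4 higher and 0 lower at an unadjusted p under 0.05 (6.41% and 3.86% of all genes) and a median log2 fold change of 1.22. The 4 were Timd4, a relative of TIM-3 that binds phosphatidylserine, the SLAM receptors Slamf6 and Slamf7, and Pvrig, a receptor of nectin-2. Slamf7 stood at 0, 0.791 and 0 CPM across the naive replicates and at 17.8 to 26.3 CPM in the allografts (log2 fold change 5.84, SE 2.11, adjusted p = 0.358 by edgeR). Timd4 and Slamf6 had 0 naive counts and were at least 50.1-fold and 67.4-fold higher, at 2.16 to 4.36 CPM and 0.661 to 7.13 CPM in the allografts. Pvrig had 0 naive counts and 0 to 3.02 CPM in the allografts. When naive replicate 2 was left out, 3 of 13 tested relatives passed, beside 3.1% of all genes: Timd4 (adjusted p = 0.0433 by edgeR), Slamf7 (0.0198) and Slamf8 (0.0482). For each of the 3 the adjusted p reached 1 in another alternative.

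Other inhibitory receptors, 11 tested of 14 listed, gave 0 passing genes, with 1 higher and 0 lower at an unadjusted p under 0.05 (6.41% and 3.86% of all genes), and a median of 1.46. Cd300lf, a receptor with inhibitory motifs, was that 1 gene: 0 naive counts and 1.96 to 7.07 CPM in allografts. This was higher by at least 61.2-fold (adjusted p = 0.144 by edgeR). It passed without naive replicate 2 (adjusted p = 0.0437), the 1 gene of this list to do so, and the median was then 0.99. Cd101 had 1.93 to 9.67 CPM in naive and 14.3 to 26.0 CPM in allograft libraries. Transcription factors known from activated, exhausted or resident lymphocytes gave 0 passing genes of 16 tested, with 4 higher and 0 lower at an unadjusted p under 0.05 and a median of 0.76. Tcf7 (TCF-1) had 0.857 to 4.68 CPM in naive and 21.5 to 48.2 CPM in allograft libraries (log2 fold change 4.06, SE 0.800, adjusted p = 0.144 by edgeR). Irf4 had 0 to 3.17 CPM and 41.5 to 56.8 CPM (log2 fold change 4.93, SE 1.496, adjusted p = 0.306 by edgeR). Tbx21 (T-bet) and Zfp683 (Hobit) had 0 naive counts and were at least 67.2-fold and 39.5-fold higher. Tbx21 passed without naive replicate 2 (adjusted p = 0.0446 by edgeR), the 1 gene of this list to do so, and the median was then 0.26. For Cd300lf and Tbx21 the adjusted p reached 1 in another alternative. Over all 5 lists, 0 of 68 tested genes passed in edgeR, 0 in limma voom and 9 in DESeq2. DESeq2 called 6.93% of the 18027 genes to which it gave an adjusted p, and it gave none for some list genes, such as Ceacam1, Nectin2 and Cd200. At an unadjusted p under 0.05 in edgeR, 14 of the 68 were higher (6.41% of all tested genes) and 0 lower (3.86%).

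Marker sums of NK cells and of dendritic cells were higher in each allograft, while the T cell sums overlapped between the groups. All 8 receptors are also known from NK cells, T cells, dendritic cells or mast cells. For the 9 NK cell genes the sums were 174, 18.2 and 88.6 CPM across naive replicates 1 to 3, against 244 to 338 CPM in the allografts, and 7 of the 9 lay higher in each allograft, as did 12.5% of all tested genes. Gzma led this list, and Klra4, Klra8 and Klra9 had 0 counts in all naive libraries. The 8 dendritic cell genes summed to 12.7 to 31.8 CPM in naive and 85.3 to 113 CPM in allograft libraries, 5 of them higher in each allograft (12.5% of all genes), with Zbtb46 as the leading gene. The 11 T cell genes summed to 348, 31.1 and 1085 CPM and to 1070 to 1271 CPM, carried by Trbc1, Trbc2 and Cd3g. In this list 4 of 11 genes lay higher in each allograft (12.5% of all genes): Cd3g, Trbc2, Trac (5.06 to 10.6 CPM in naive and 12.5 to 19.6 CPM in allograft libraries) and Cd247 (at most 0.659 CPM and 4.36 to 13.3 CPM). Cd3d had 1.68 to 32.5 CPM over the 7 libraries and Cd3e 0.154 to 1.24 CPM. Cd4 had 11.6 CPM in naive replicate 3 and at most 0.721 CPM elsewhere. Cd8a, Cd8b1 and Cd6 were at or under 3 counts in each naive library and had at most 2.25, 2.64 and 1.07 CPM in the allografts. The 6 eosinophil genes summed to 0 to 26.8 CPM and to 92.2 to 203 CPM. The 8 mast cell and basophil genes summed to 25.3 to 421 CPM in naive and 228 to 272 CPM in allograft libraries. Allograft replicate 3 was the highest for Lag3, Havcr2 and Cd244. Its NK cell and eosinophil sums were the lowest of the allografts (244 and 92.2 CPM). Its dendritic cell and T cell sums were the highest (113 and 1271 CPM), but allograft replicate 1 was close (106 and 1249.5 CPM). The part of such cells in the receptor values was not tested.

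**Figure D5:**
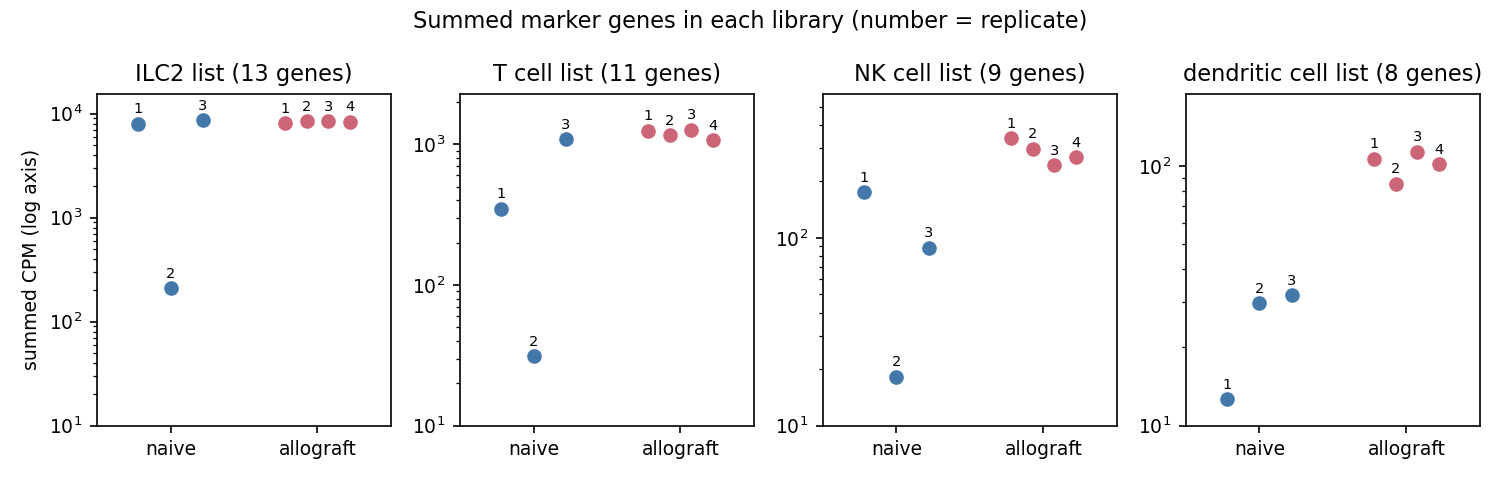
Summed CPM (log axis) of the ILC2, T cell, NK cell and dendritic cell marker lists in naive (blue) and allograft (red) libraries; numbers are replicates. Naive replicate 2 is far below the rest in ILC2 genes, and the NK cell and dendritic cell sums of all allografts lie above those of all naive libraries.

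For receptors with over 3 counts in each library, the genes most alike were those with the smallest mean absolute difference of log2 CPM over the 7 libraries, after each gene was centred on its own mean. Among 10092 genes, Ets1 (0.207) and Mxd1 (0.222) were most alike to Cd96, where the median gene differed by 1.1636. Raly (0.244) and Mlf1 (0.264) were most alike to Cd226 (median 1.35), and Cenpl (0.150) and Fancm (0.182) to Cd200r1 (median 1.18). All 6 genes had their lowest or second lowest value in naive replicate 2. Raly, with 15.8, 2.04 and 1.31 CPM in naive replicates 1 to 3 and 15.5 to 22.6 CPM in allografts, shared with Cd226 a level in naive replicate 1 near that of the allografts.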

How the data were processed

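RNA of sorted heart ILC2s was measured in 3 naive and 4 allograft libraries, with groups and replicate numbers from the sample titles. The authors deposited whole-number counts per gene and FPKM for the same identifiers, and both tables matched the samples with 0 columns left over. Per the submitters' processing notes, FastQC 0.11.5, STAR 2.5.3a, StringTie 1.3.1c, DESeq2 1.16.1 and the build mm10 (GRCm38) were used; the role of each, the annotation and the use of strand are not given in the sources used here. Per the labels' protocols, cDNA was amplified with a full-length kit meant for single cells; molecular identifiers are not named there, so reads are not taken as independent molecules and floors cover counting error only.

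CPM is the deposited count scaled to a library total of 1000000. The comparison used edgeR 4.0.16 in R 4.3.3 (quasi-likelihood, TMM, filterByExpr, Benjamini-Hochberg adjustment over all tested genes, threshold 0.05). Its code was tested on simulated data with the same spread for all genes and no library that stood apart. Because these libraries differ in both, that test does not tell how many true changes would pass here. Fold changes are allograft over naive, and standard errors were derived from the F statistic. Where all naive libraries held at most 3 counts, the fold is a lower bound against the mean CPM of 3 counts per library, and p comes from the same fit. The alternatives were DESeq2 1.42.0 size factors in that fit, its own Wald test, limma 3.58.1 voom with sample quality weights, no filter, a mean of at least 50 counts, a replicate block and leaving out each library. Depth limits a count of 0 to between 0.0566 and 0.103 CPM.

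Named were all 8 receptors, ligand genes, up to 4 genes with the smallest p of each other list, marker genes with the highest mean or no count and the 2 genes most alike to a receptor. Genes beyond that (Il1rl1, Gata3, Klra4, Klra8, Klra9, Slamf8, the T cell genes other than Trbc1, Pdzk1) were chosen after their values were seen. The receptors, lists and motifs were chosen with earlier results of these data known. Loci are from GENCODE M21 and start regions from RefSeq.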

Additional observations from a re-analysis of the deposited data

Results flagged for a closer look

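Among the 4 allografts, 59 values were screened for a single library remote from the remaining 3. This held for 5 of them, and chance alone would give 2.95 if the values were independent. They were not, since each receptor entered by CPM and again by FPKM. Tigit and Cd244 were flagged by FPKM only. Tigit was lowest in allograft replicate 4 at 24.86 FPKM, while the others lay at 40.05 to 43.05. Cd244 was highest in allograft replicate 3 at 4.386 FPKM, while the others lay at 1.399 to 1.906. For Tcf7 the low library was allograft replicate 2, at 21.54 CPM, with the others at 43.93 to 48.17. Fgl1, a ligand of LAG-3, had 0.5384 CPM in allograft replicate 3 and 0 in the others. The macrophage and monocyte markers summed to 272.9 CPM in allograft replicate 1, with 172.4 to 189.2 in the rest.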

How the results depend on the processing

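The number of genes past the threshold, 6 of 17015, was 1249 with DESeq2, 1 with limma voom, 0 with the replicate block (252 at an unadjusted p under 0.05) and 0 to 560 when 1 library was left out. Leaving out naive replicate 2 gave 560 genes and naive replicate 1 gave 107. Leaving out an allograft gave 0, beside 848 to 1074 genes when p was not adjusted. For the receptors, 0 passed with all libraries, 2 with DESeq2 and 0 to 1 when 1 library was left out, and for the 5 lists the numbers were 0, 9 and 0 to 10. With DESeq2 size factors in edgeR 4 genes passed, all higher. The log2 fold change of Cd200r1 turned to 0.55 with limma voom, 0.21 with the replicate block and 0.59 without naive replicate 3, and was lowest at -1.13 without naive replicate 2; the cause was not tested. The median of all genes was -0.20 with DESeq2 size factors, 0.66 with limma voom, 0.55 with the block and 0.23 without naive replicate 2, so the first 2 Cd200r1 values lay below it. The fold changes of the other 7 receptors stayed above 0 in all alternatives. With limma voom and the replicate block they moved to 6.05 and 7.97 for Lag3, 5.69 and 9.68 for Tigit, 7.52 and 4.42 for Cd160, 5.58 and 5.38 for Havcr2, 1.42 and 2.40 for Cd226 and 1.43 and 1.66 for Cd96. With the block every receptor had an adjusted p of 1. DESeq2 gave no adjusted p for Cd226. The median of the family relatives, 1.22, ran from -0.22 (a mean of at least 50 counts) to 7.22 (without naive replicate 2; 3.50 with genes at their bound), and that of the ligands, 0.24, to 3.38 (3.32 with bounds). Among the 14 ligands, fitted log2 fold changes turned as follows, with causes not tested; those against naive libraries at 0 are no bounds. Leaving out naive replicate 2, Ceacam1 turned to 9.25, Nectin1 to 7.31, Nectin2 to 2.46, Nectin3 to 9.24, Cd200 to 9.86, Lgals9 to -0.30, Hmgb1 to -0.035 and Cd48 to -0.18. With limma voom, Ceacam1 turned to 4.77, Nectin1 to 3.03, Nectin2 to 0.78, Nectin3 to 4.59 and Cd200 to 5.06, and with the replicate block to 6.18, 1.23, 1.01, 5.50 and 5.40. Pvr turned to -0.31 and -0.29 with DESeq2 size factors and DESeq2, and to -0.48, -0.47 and -0.39 without naive replicate 1, naive replicate 3 or allograft replicate 4. At the other end of leaving out 1 library stood -3.20 for Ceacam1, -1.02 for Nectin1, -6.12 for Nectin2, -3.85 for Nectin3, -4.10 for Cd200, 0.86 for Lgals9, 1.18 for Hmgb1, 1.46 for Cd48 and 6.47 for Pvr. Equal replicate numbers share only a number: deviations from the group means correlated at 0.0169, -0.0196 and 0.0360 in the 3 pairs, and not every library was most like its own number.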

Other observations

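Because naive replicate 2 held few lymphocyte transcripts, the receptors were also set against Ptprc (CD45), the gene of the sorting marker, in each library. This scaling was chosen after the values were seen, and no test was made. The share of all genes that lie apart on such scales was not computed, so the shares given for CPM do not apply here. Cd200r1 was 49.7%, 29.5% and 47.5% of Ptprc in naive replicates 1 to 3 and 15.99% to 21.6% in the allografts, lower in each allograft. Relative to Il7r, a receptor of ILC2s, it was 17.2% to 36.5% in naive and 12.8% to 15.3% in allograft libraries, again without overlap. Relative to Gata3 the groups overlapped (9.91% to 27.7% against 9.06% to 15.4%), through naive replicate 2 alone. Naive replicates 1 and 3, at 18.17% and 27.7%, lay above every allograft.

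Cd96 was 15.1%, 25.3% and 18.1% of Ptprc in the naive libraries and 8.01% to 26.4% in the allografts, so that naive replicate 2 no longer stood low. Lag3 and Havcr2 of naive replicate 2 were 20.8% and 11.4% of Ptprc, above all other libraries, where they were at most 1.80% and 4.37%. Cd244, with 0 naive counts, was 1.07% to 4.90% of Ptprc in the allografts. Tigit was 6.27%, 0% and 0% of Ptprc in naive replicates 1 to 3 and 5.74% to 11.7% in the allografts, and Cd160 was 0%, 8.82% and 3.50% and 3.89% to 9.49%, so both overlapped between the groups. Cd226 (0.402% to 29.6% against 5.34% to 9.83%) overlapped too. Of the 4 receptors apart by CPM, Cd244 alone was apart against Ptprc and against Il7r with all libraries, whereas Tigit, Cd160 and Cd244 were apart against Gata3. Without naive replicate 2, Havcr2 and Cd160 were apart too against Ptprc and Il7r, and Havcr2 also against Gata3. Against Ptprc, Havcr2 was then at most 0.284% in naive and at least 2.23% in allograft libraries. For Cd160 these values were 3.50% and 3.89%. Tigit still overlapped against Ptprc and Il7r.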
